A study of Homo sapiens with 14 samples.

Results

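The ERBB receptors and their EGF-like ligands were followed as 10 genes, 4 receptors (EGFR, ERBB2, ERBB3 and ERBB4) and 6 ligands (AREG, EREG, HBEGF, TGFA, EGF and BTC), out of 20033 protein-coding genes. They were chosen by name, and a KLF4 peak belonged to a gene when its summit lay from 10 kb upstream of the most upstream annotated start to 2 kb past the end of the gene. In all, 42 KLF4 peaks met this rule in the 4 peak lists. The lists came from KLF4 ChIP-seq of BEAS-2B cells, an immortalized line of human bronchial epithelium, with 1 library each for untreated wild-type cells (WT control), WT cells given 1 µM arsenite (As3+) for 6 h (WT As3+), untreated Nrf2 knockout cells (Nrf2 KO control) and Nrf2 KO cells given 1 µM As3+ for 6 h (Nrf2 KO As3+). The Nrf2 KO cells were colonies that had lost the Nrf2 protein after CRISPR-Cas9 cutting in exon 2 of its gene, and the WT cells were colonies from the same transfections that still made it, so that each genotype stands for picked colonies. Peak lists hold no expression values, and neither the epithelial identity of the cells nor the loss of Nrf2 could be checked in them, nor could the treatment labels. With 1 library per condition no difference below has a replicate check and no test is given.

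ERBB receptors are cell surface tyrosine kinases that pair when a ligand binds and then drive the RAS-MAPK and PI3K-AKT pathways. EGF, TGFA, AREG, EREG, HBEGF and BTC are made as membrane-bound precursors, are cut free by sheddases and bind EGFR, and some of them also bind ERBB4. In airway epithelium this system is known for its part in repair after injury. KLF4 is a zinc finger transcription factor whose known sites are GC-rich words of the CACCC kind.

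KLF4 peaks lay at the start of 8 of the 10 genes in the WT As3+ and Nrf2 KO control libraries and at the start of EGFR alone in the other two. A gene start here is the start of the canonical transcript, and a promoter peak is a summit within 2 kb of it. The canonical start lies 12150 bp past the most upstream annotated start at ERBB2 and 3366 bp past it at ERBB3. In the WT control library 1 of 10 genes had a peak anywhere in its window, where 2.51% of all protein-coding genes had one, and in the Nrf2 KO As3+ library 1 of 10, where 0.439% did. In the WT As3+ library 8 of 10 had a peak against 66.5% of all genes, and in the Nrf2 KO control library 9 of 10 against 81.0%. At promoters the counts were 1 of 10 in WT control (0.794% of all genes), 8 of 10 in WT As3+ (52.5%), 8 of 10 in Nrf2 KO control (67.5%) and 1 of 10 in Nrf2 KO As3+ (0.195%). In the 2 short lists the family's count rested on EGFR. The windows held 3 peaks in WT control, 14 in WT As3+, 22 in Nrf2 KO control and 3 in Nrf2 KO As3+. Per 100 kb of window this was 0.162, 0.757, 1.19 and 0.162 peaks, or 0.445, 1.93, 2.82 and 0.445 without the very long ERBB4, beside 0.0347, 1.93, 4.50 and 0.00593 over all protein-coding genes. EREG had no KLF4 peak in any list, and EGF had 1 peak, in the Nrf2 KO control list.

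The lists differ greatly in length, with 751 peaks in WT control, 29870 in WT As3+, 76545 in Nrf2 KO control and 130 in Nrf2 KO As3+. From the fold enrichment and p given for a peak, the fragments piled up over its summit and the local background, the number expected there, could be solved. The lowest local background in a list was 1.90 fragments in WT control, 0.757 in WT As3+, 0.491 in Nrf2 KO control and 1.64 in Nrf2 KO As3+, so the long lists have the lower background levels. A site at this lowest background could enter the list from 10 fragments in WT control, 5 in WT As3+, 4 in Nrf2 KO control and 9 in Nrf2 KO As3+. Whether depth, the control sample or the immunoprecipitation set these list lengths was not tested. To set libraries side by side, fragments over a summit were also divided by the lowest background of their library, with exact Poisson 95% intervals that cover counting error only.

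EGFR was the member with peaks in every library, so the sequence under its summits is given before the values, in GRCh38 on the plus strand. The stretch that holds the highest summit of all 4 libraries is chr7:55019638-55019933, in intron 1 shortly after exon 1. Capitals in it mark a GC box of the wider KLF kind (CCCCGCCC or CCCCACCC, either strand). This word fell in the 200 bases around the WT control and Nrf2 KO As3+ summits. It fell outside those of WT As3+ and Nrf2 KO control. The other 2 stretches are 200 bases centred on summits deep in intron 1, chr7:55074076-55074275 in WT control and chr7:55132882-55133081 in WT As3+, with the same wider KLF word and the AP-1 word TGACTCA (either strand) in capitals.
EGFR start of intron 1: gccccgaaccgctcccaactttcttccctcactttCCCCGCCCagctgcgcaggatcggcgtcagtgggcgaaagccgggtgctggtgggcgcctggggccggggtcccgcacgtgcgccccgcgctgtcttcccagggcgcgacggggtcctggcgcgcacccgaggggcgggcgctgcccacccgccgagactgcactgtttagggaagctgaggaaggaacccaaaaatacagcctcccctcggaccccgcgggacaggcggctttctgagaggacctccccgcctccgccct
EGFR intron 1, WT control summit: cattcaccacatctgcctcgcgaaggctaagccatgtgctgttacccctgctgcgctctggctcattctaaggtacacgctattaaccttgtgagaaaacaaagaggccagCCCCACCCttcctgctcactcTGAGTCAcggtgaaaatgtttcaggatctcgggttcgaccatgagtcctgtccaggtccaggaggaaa
EGFR intron 1, WT As3+ summit: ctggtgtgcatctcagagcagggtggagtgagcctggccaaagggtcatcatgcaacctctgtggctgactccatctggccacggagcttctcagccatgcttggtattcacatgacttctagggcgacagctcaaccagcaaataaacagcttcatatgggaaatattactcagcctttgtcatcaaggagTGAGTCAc
The stretch near the start is 71.3% G or C and holds 31 CG pairs, while the stretches deep in the intron are 53.0% and 51.0% G or C and hold 7 and 2 CG pairs.

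EGFR, the receptor for all 6 ligands, spans chr7:55019017-55211628 on the plus strand and was the only member with KLF4 peaks in all 4 libraries. The main peak lay in intron 1, with its summit 726 bp past the start in WT control, 758 bp in WT As3+, 817 bp in Nrf2 KO control and 721 bp in Nrf2 KO As3+. Over these summits there were 22 fragments (13.8 to 33.3) in WT control, 41 (29.4 to 55.6) in WT As3+, 41 (29.4 to 55.6) in Nrf2 KO control and 25 (16.2 to 36.9) in Nrf2 KO As3+. The peak was thus highest in WT As3+ and Nrf2 KO control, in the libraries whose background was lowest. Divided by the lowest background, the levels were 11.6 (7.24 to 17.5) in WT control, 54.1 (38.8 to 73.4) in WT As3+, 83.5 (59.9 to 113) in Nrf2 KO control and 15.3 (9.89 to 22.6) in Nrf2 KO As3+. The intervals of WT control and Nrf2 KO As3+ overlapped each other and lay below those of the other pair, which also overlapped each other. The fold enrichments given by the authors' lists ran in the same order, at 7.04, 21.4, 26.4 and 8.80.

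The EGFR peak was also broad where it was high. It covered 2338 bp in WT As3+ (chr7:55018387-55020724) and 2197 bp in Nrf2 KO control (chr7:55018463-55020659), from upstream of the start into intron 1. In WT control it covered 455 bp (chr7:55019555-55020009), and in Nrf2 KO As3+ the main peak covered 738 bp (chr7:55019547-55020284). The Nrf2 KO As3+ list split the same region into 3 peaks, the others being 202 bp upstream of the start with 16 fragments and 164 bp past it, in the 5′ UTR of exon 1, with 15 fragments. All 3 lay inside the broad peaks of WT As3+ and Nrf2 KO control.

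Set beside every protein-coding gene with a promoter peak in the same list, the EGFR promoter was among the highest by fragments in the long lists and near the middle by fragments in the short ones. By fragments over the main summit it ranked 32 of 10526 in WT As3+ and 11 of 13531 in Nrf2 KO control, where the medians were 14 and 11 fragments. In WT control it ranked 86 of 159 with a median of 24 fragments, and in Nrf2 KO As3+ 18 of 39 with a median of 25. By width it was among the broadest of the same promoters in every list, ranking 4 in WT As3+, 35 in Nrf2 KO control, 10 in WT control and 5 in Nrf2 KO As3+. The 3 EGFR peaks made up 2.31% of the Nrf2 KO As3+ list, and 2 protein-coding genes, EGFR included, had that many peaks in it.

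Away from the start, the 2 WT libraries shared 1 EGFR site. Neither Nrf2 KO library listed a peak at that site, though Nrf2 KO control had peaks elsewhere in the gene. In WT control intron 1 held a peak 55159 bp past the start with 17 fragments (chr7:55074019-55074252) and another 113926 bp past it with 21 fragments (chr7:55132856-55133055). WT As3+ had a peak at the second place, 113965 bp past the start, with 14 fragments (chr7:55132866-55133147) and none at the first. Over the lowest background the second site stood at 11.0 (6.83 to 16.9) in WT control and 18.5 (10.1 to 31.0) in WT As3+. These intervals overlapped, and the difference was not tested. Nrf2 KO control had neither, and listed weaker peaks 106892 bp past the start in intron 1 with 6 fragments and 174201 bp past it in intron 22 with 5 fragments. Nrf2 KO As3+ had no EGFR peak away from the promoter.

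**Figure D1:**
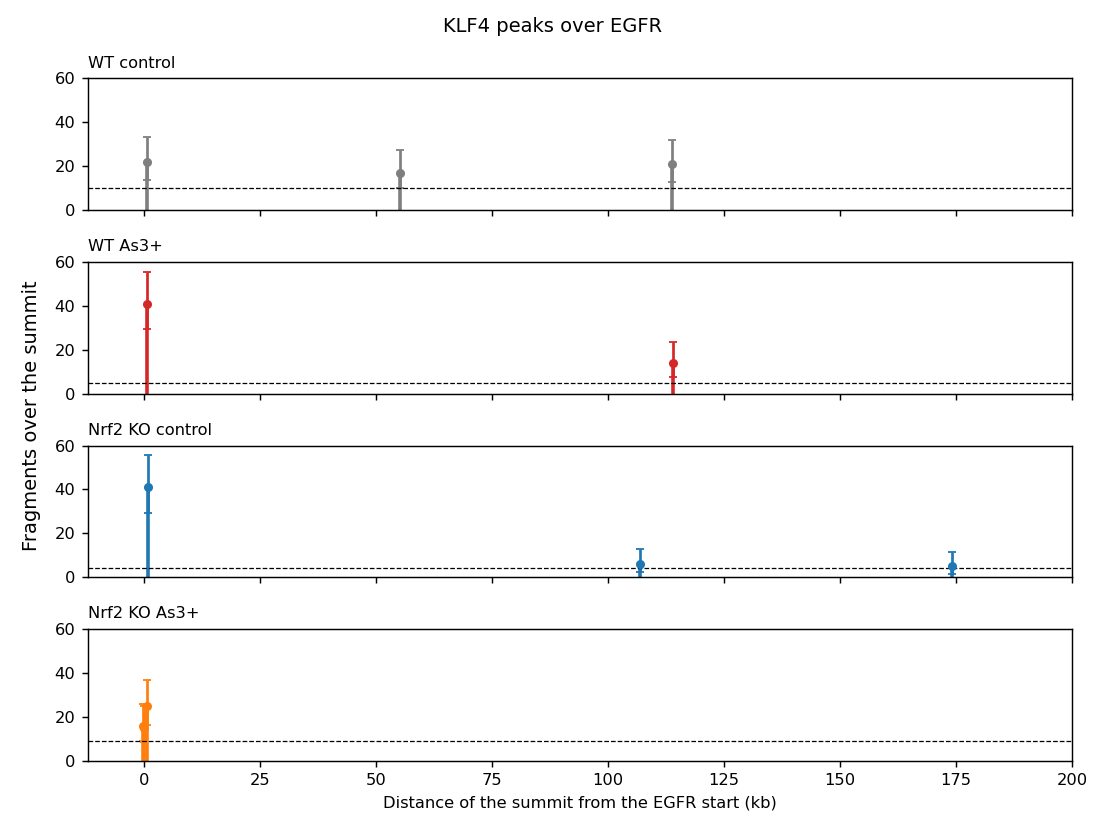
KLF4 peaks over EGFR, 1 panel per library, with distance of the summit from the start in kb on the horizontal axis and fragments over the summit on the vertical axis. Bars through the points are exact Poisson 95% intervals, and the dashed line is the number of fragments from which a site at the lowest background of that library could be listed. The peaks at the start reach 41 fragments in WT As3+ and Nrf2 KO control, and the site deep in intron 1 with 21 and 14 fragments appears in the 2 WT panels.

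Within 1 Mb of the EGFR start there were 4 peaks in WT control, 20 in WT As3+, 18 in Nrf2 KO control and 5 in Nrf2 KO As3+, and without the peaks of EGFR itself 1, 18, 15 and 2 remained. The mean number per 2 Mb of the assembled chromosomes was 0.486, 19.3, 49.6 and 0.0842 in the same order. The local background at the EGFR main peak was 2.27, 0.963, 0.592 and 1.95 fragments, below the median over all peaks of the same list at 4.84, 1.35, 0.717 and 3.33. The promoter most like that of EGFR, of 22 with a peak in all 4 libraries, was that of SEC61G, a subunit of the endoplasmic reticulum translocon and a neighbour on the same chromosome, with 21, 44, 44 and 23 fragments. It was followed by CYRIA, a regulator of RAC1, with 25, 41, 37 and 21 fragments and CPEB4, an RNA-binding protein, with 35, 31, 28 and 22. Their distances from EGFR, taken over log2 fragments in 4 libraries, were 0.20, 0.35 and 0.97.

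The other 3 receptors had KLF4 peaks in WT As3+ and Nrf2 KO control and none in WT control or Nrf2 KO As3+. Their sequences are shown as the 200 bases around a summit that held a KLF word, read on the strand of the gene, with words in capitals. They are chr17:39700763-39700962 (plus strand, WT As3+) for ERBB2, chr12:56079453-56079652 (plus strand, WT As3+) for ERBB3 and chr2:212539173-212539372 (minus strand, Nrf2 KO control) for ERBB4, the last of which also holds the KLF word proper (CCACGCCC or CCACACCC, either strand).
ERBB2 intron 1: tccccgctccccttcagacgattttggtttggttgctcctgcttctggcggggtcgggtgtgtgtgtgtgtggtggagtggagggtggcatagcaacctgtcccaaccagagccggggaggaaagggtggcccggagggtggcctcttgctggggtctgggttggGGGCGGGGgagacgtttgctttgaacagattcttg
ERBB3 upstream: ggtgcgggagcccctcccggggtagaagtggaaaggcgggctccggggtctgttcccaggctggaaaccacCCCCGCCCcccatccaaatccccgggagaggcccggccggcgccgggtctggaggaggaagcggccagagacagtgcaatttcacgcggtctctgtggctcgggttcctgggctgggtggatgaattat
ERBB4 upstream: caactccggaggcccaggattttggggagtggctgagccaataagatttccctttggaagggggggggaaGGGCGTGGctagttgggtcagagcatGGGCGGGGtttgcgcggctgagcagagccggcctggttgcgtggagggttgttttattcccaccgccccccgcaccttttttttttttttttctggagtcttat
The ERBB3 and ERBB4 words lie upstream of the gene start and the ERBB2 word lies in intron 1. The ERBB4 summit shown had 5 fragments, and the other ERBB4 summits held neither kind of KLF word.

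ERBB3, whose own kinase is weak and which signals to PI3K through its partners, had the highest of these. Its WT As3+ peak (chr12:56079117-56080259) covered 1143 bp with the summit 612 bp upstream of the start and 24 fragments, 31.7 (20.3 to 47.1) times the lowest background. In Nrf2 KO control the same stretch held a peak 709 bp upstream and another 31 bp past the start, in the UTR of exon 1, with 15 fragments each, and the first stood at 30.5 (17.1 to 50.4). The ERBB3 levels of the 2 libraries thus lay within each other's interval. Nrf2 KO control had weaker ERBB3 peaks of 6 fragments each, 1543 bp past the start in intron 1 and 7310 bp upstream of it.

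ERBB2, which has no known ligand and pairs with the other receptors, had low promoter peaks. There were 7 fragments 799 bp past the start in WT As3+ (chr17:39700749-39700948) and 7 fragments 382 bp past it in Nrf2 KO control (chr17:39700357-39700987), both in intron 1. ERBB4, a receptor for neuregulins that is also a kinase, had 7 fragments 1022 bp past the start in WT As3+ and 7 fragments 603 bp past it in Nrf2 KO control, both in intron 1. ERBB4 is by far the longest member with 1163125 bp, and its only other peaks were in Nrf2 KO control, 471 bp upstream with 5 fragments and 1014289 bp past the start in intron 20 with 7 fragments. For ERBB2 and ERBB4 the lower bound in WT As3+, 3.72 times the lowest background, lay below the 5.25 from which WT control could list a site, so a WT control site of that strength could have gone unlisted. For ERBB3 the ratio seen in WT As3+ would correspond to 60.3 fragments at the lowest background of WT control, where 10 were needed.

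Some peaks in the windows of ERBB2 and ERBB3 lay at the starts of neighbouring genes. At the 3′ end of ERBB2, 30518 bp past its start in WT As3+ (11 fragments) and 30304 bp past it in Nrf2 KO control (8 fragments), the summits were 50 and 123 bp from a start of MIEN1, a gene of the same amplified region in breast cancer. Beyond the end of ERBB3, WT As3+ had peaks of 14 and 10 fragments and Nrf2 KO control peaks of 11 and 8 fragments, all within 420 bp of a start of PA2G4, which encodes an ERBB3-binding protein. These 6 peaks are part of the 42 and can be assigned to either gene.

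Among the ligands, HBEGF and TGFA had the highest peaks, and the stretches shown are the 200 bases around 3 WT As3+ summits, read on the minus strand, which is the strand of both genes. The first, chr5:140345998-140346197, is the main HBEGF summit, and it holds none of the words searched. The second, chr5:140344747-140344946 in HBEGF intron 2, has wider KLF words and AP-1 words in capitals. The third, chr2:70554071-70554270 upstream of TGFA, has wider KLF words only.
HBEGF intron 1: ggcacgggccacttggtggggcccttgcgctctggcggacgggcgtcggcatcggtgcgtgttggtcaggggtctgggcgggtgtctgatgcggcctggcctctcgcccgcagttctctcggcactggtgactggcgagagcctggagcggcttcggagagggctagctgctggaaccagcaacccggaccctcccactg
HBEGF intron 2: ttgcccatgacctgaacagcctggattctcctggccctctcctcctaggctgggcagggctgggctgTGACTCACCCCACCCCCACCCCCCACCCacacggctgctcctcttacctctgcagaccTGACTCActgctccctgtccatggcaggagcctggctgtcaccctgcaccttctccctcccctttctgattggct
TGFA upstream: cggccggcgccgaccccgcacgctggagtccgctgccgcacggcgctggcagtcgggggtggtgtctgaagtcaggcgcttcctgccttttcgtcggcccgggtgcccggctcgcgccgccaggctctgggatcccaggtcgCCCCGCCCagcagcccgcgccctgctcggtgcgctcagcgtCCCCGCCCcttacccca
In the HBEGF intron 2 stretch 3 overlapping CCCCACCC words follow an AP-1 word, and a second AP-1 word stands further along, while the TGFA stretch holds CCCCGCCC at 2 places.

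HBEGF, the heparin-binding ligand that acts early in epithelial repair, had 3 WT As3+ peaks. The main one lay in intron 1, 505 bp past the start, with 27 fragments (chr5:140345914-140346451), and the others lay 216 bp upstream with 18 fragments and 1756 bp past the start in intron 2 with 8 fragments. In Nrf2 KO control there was 1 peak, 89 bp past the start in the UTR of exon 1, with 14 fragments (chr5:140346355-140346875). Over the lowest background the main peaks stood at 35.6 (23.5 to 51.9) in WT As3+ and 28.5 (15.6 to 47.8) in Nrf2 KO control, with overlapping intervals. TGFA, a ligand that sends EGFR back to the cell surface after uptake, had 1 WT As3+ peak of 15 fragments 345 bp upstream of the start (chr2:70553938-70554442). In Nrf2 KO control it had 3, with 13 fragments 441 bp upstream (chr2:70554035-70554516), 7 fragments 927 bp upstream and 7 fragments 22 bp past the start.

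AREG, EREG, BTC and the further ligand gene EPGN lie in a cluster of 506 kb on chromosome 4 (chr4:74298470-74804523, with 10 kb on either side), which held no peak in WT control, 3 in WT As3+, 5 in Nrf2 KO control and none in Nrf2 KO As3+. AREG, amphiregulin, a ligand that airway epithelium releases under stress, had 12 fragments 20 bp upstream of its start in WT As3+ (chr4:74445015-74445271) and 8 fragments 43 bp upstream in Nrf2 KO control (chr4:74444941-74445215), where there was a further peak of 6 fragments 1212 bp upstream. BTC, betacellulin, had 10 fragments 370 bp past its start in WT As3+ (chr4:74794086-74794674) and 13 fragments 150 bp past it in Nrf2 KO control (chr4:74794209-74794684). EREG, epiregulin, lies between EPGN and AREG and had no peak. EGF itself had 7 fragments in intron 1 in Nrf2 KO control, 13519 bp past its start (chr4:109926304-109926566), and nothing at its promoter.

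**Figure D2:**
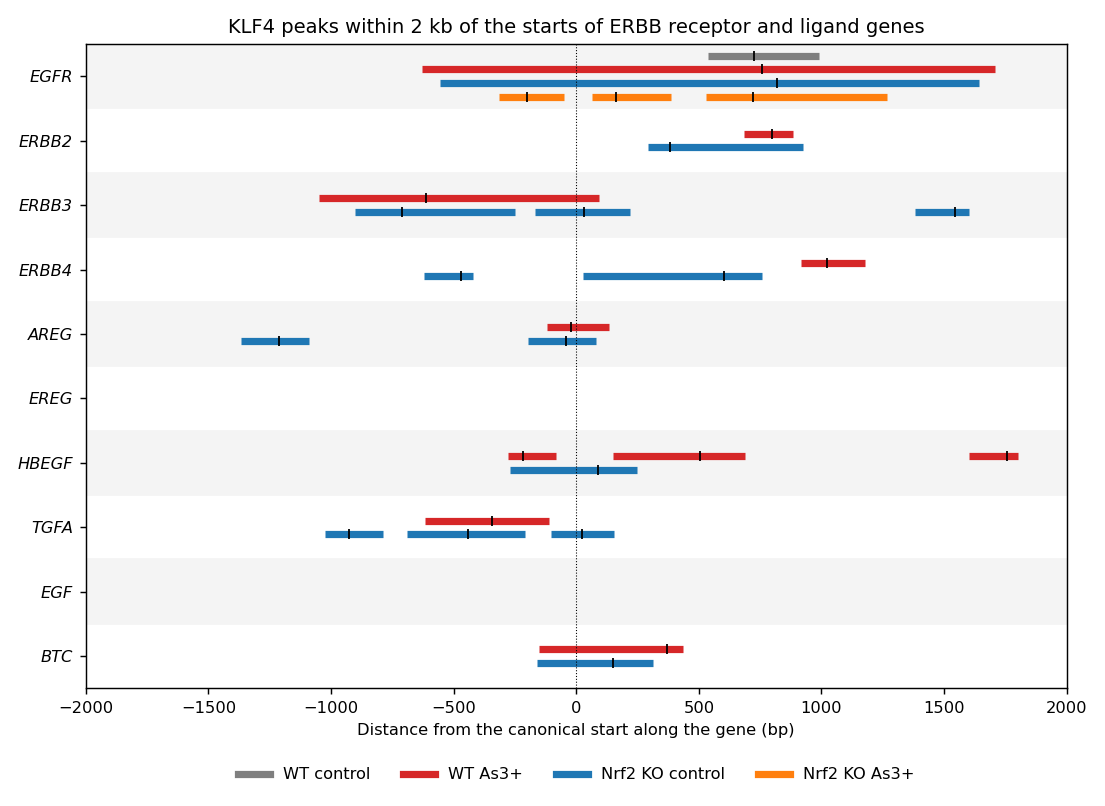
Peaks within 2 kb of the canonical start of each of the 10 genes, with distance along the gene in bp on the horizontal axis. Each bar is a peak from its first to its last base, the black mark is its summit, and colours are the 4 libraries. EGFR has bars in all 4 colours, EREG and EGF have none, and the other 7 genes have bars in WT As3+ and Nrf2 KO control.

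Most member peaks in the WT As3+, Nrf2 KO control and Nrf2 KO As3+ lists lay at gene starts. Within 2 kb of the start lay 1 of 3 member peaks in WT control, 10 of 14 in WT As3+, 14 of 22 in Nrf2 KO control and 3 of 3 in Nrf2 KO As3+. The same share over all listed peaks was not worked out, so these counts are not shown to differ from the whole lists. Of the 14 WT As3+ peaks 11 shared 1 bp or more with a Nrf2 KO control peak, which is 78.6% (exact Clopper-Pearson 95% interval 49.2% to 95.3%, counting error only), and of the 22 Nrf2 KO control peaks 11 shared 1 bp or more with a WT As3+ peak (interval of the share 28.2% to 71.8%). Over all peaks of these lists, 55.6% in WT As3+ and 21.7% in Nrf2 KO control met the same rule. A Nrf2 KO control summit lay within 100 bp of 4 of the 14 summits, and of 22.9% of all WT As3+ summits. The receptors held 8 and the ligands 6 of the WT As3+ peaks, and 14 and 8 of those in Nrf2 KO control.

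Over the lowest background, the main promoter peaks of the 8 genes had a median of 17.8 in WT As3+, where that of all protein-coding promoters with a peak was 18.5, and of 26.5 in Nrf2 KO control, where it was 22.4. In WT As3+ 4 of the 8 lay above the median of all such promoters and in Nrf2 KO control 5 of the 8. In WT As3+ the order was EGFR, HBEGF, ERBB3, TGFA, AREG, BTC and then ERBB2 and ERBB4 at the same level, and neighbours in this order had overlapping intervals throughout. In Nrf2 KO control EGFR lay above the others with no overlap of intervals, and the other 7 all overlapped. At the same ratio to background, the 8 Nrf2 KO control peaks would correspond to between 23.3 and 137 fragments at the lowest background of Nrf2 KO As3+, where 9 were needed, and EGFR alone was listed there. For ERBB2 and ERBB4 the lower bound in Nrf2 KO control was 5.73 times the lowest background. That lay just above the 5.50 from which Nrf2 KO As3+ could list a site. These comparisons take the lowest background of a library as the level at these starts, and background at unlisted sites is not in the lists.

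**Figure D3:**
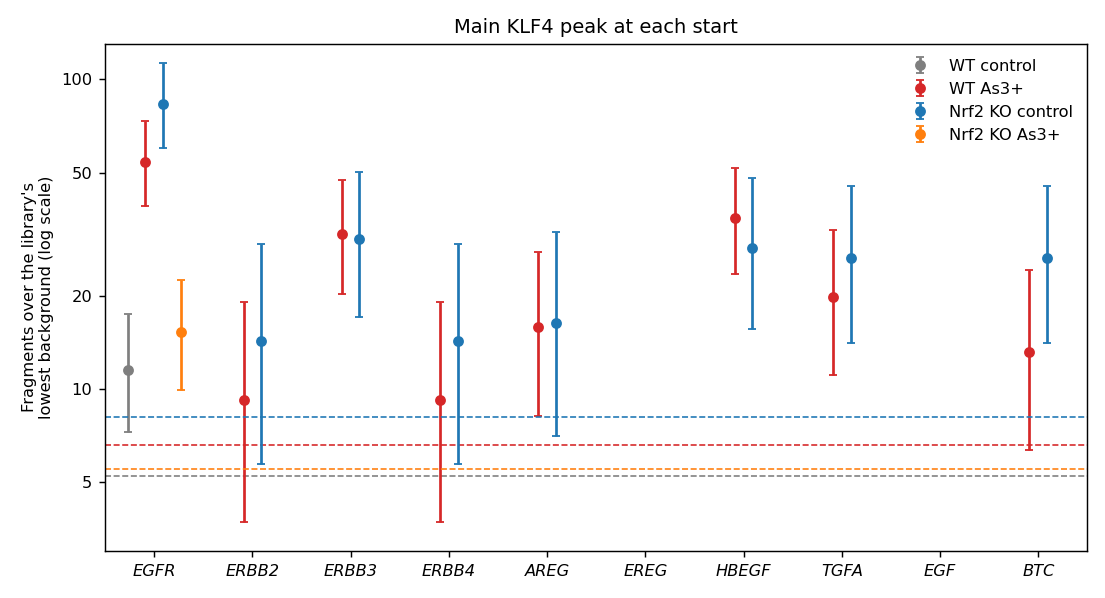
Fragments over the main promoter summit divided by the lowest background of the library, on a log scale, for each of the 10 genes. Points are single libraries, bars are exact Poisson 95% intervals, and dashed lines are the levels from which a site at the lowest background could be listed. EGFR in WT As3+ (54.1) and Nrf2 KO control (83.5) stands highest, and EREG and EGF have no point.

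The 2 genes without a promoter peak, EREG and EGF, were those with the fewest CG pairs around the start, and the promoters of the neighbours AREG and EREG are shown for this contrast. They are given here from RefSeq (GRCh38.p14, plus strand, 250 bases before to 50 after the start) as chr4:74444886-74445185 and chr4:74364895-74365194, with every CG pair in capitals. RefSeq promoters of this kind were matched for 9 of the 10 genes.
AREG promoter: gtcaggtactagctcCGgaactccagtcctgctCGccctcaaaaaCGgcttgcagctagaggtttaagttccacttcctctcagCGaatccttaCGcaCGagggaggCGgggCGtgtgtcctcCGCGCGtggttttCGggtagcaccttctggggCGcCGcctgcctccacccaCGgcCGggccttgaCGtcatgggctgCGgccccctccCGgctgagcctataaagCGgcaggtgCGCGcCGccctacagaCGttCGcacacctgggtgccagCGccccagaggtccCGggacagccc
EREG promoter: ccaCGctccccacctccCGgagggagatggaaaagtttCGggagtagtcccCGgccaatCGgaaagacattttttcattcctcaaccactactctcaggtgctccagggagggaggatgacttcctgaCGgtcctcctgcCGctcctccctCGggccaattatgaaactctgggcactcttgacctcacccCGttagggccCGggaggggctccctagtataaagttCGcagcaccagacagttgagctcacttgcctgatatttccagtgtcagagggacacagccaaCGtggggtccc
AREG has 27 CG pairs in 300 bases and EREG 12, while BTC, which had a promoter peak in both long lists, also has 12. AREG also holds the cAMP response element TGACGTCA, which 1.85% of 35116 RefSeq promoters of the same length hold and no other matched member does, and this word was picked after the sequence had been read.

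Over 1001 bases around the canonical start, EREG had 42 CG pairs, EGF 9 and BTC 49, and the other 7 genes had between 63 (ERBB2) and 118 (EGFR). A start was called CpG-rich when G and C made up at least 50% of these bases and CG pairs reached at least 0.6 of the number expected from base content. By this rule EREG (0.556), BTC (0.534) and EGF (0.198) were CpG-poor, and ERBB2, at 0.615, lay just inside the CpG-rich class. All 7 CpG-rich members had a promoter peak in WT As3+, where 71.6% of 12976 CpG-rich protein-coding starts had one, and all 7 in Nrf2 KO control, where 86.3% did. Of the 3 CpG-poor members, BTC alone had a promoter peak in either list, where 17.4% and 33.1% of 7057 CpG-poor starts had one. In WT control 1.07% of CpG-rich and 0.283% of CpG-poor starts had a peak, and in Nrf2 KO As3+ 0.247% and 0.0992%.

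**Figure D4:**
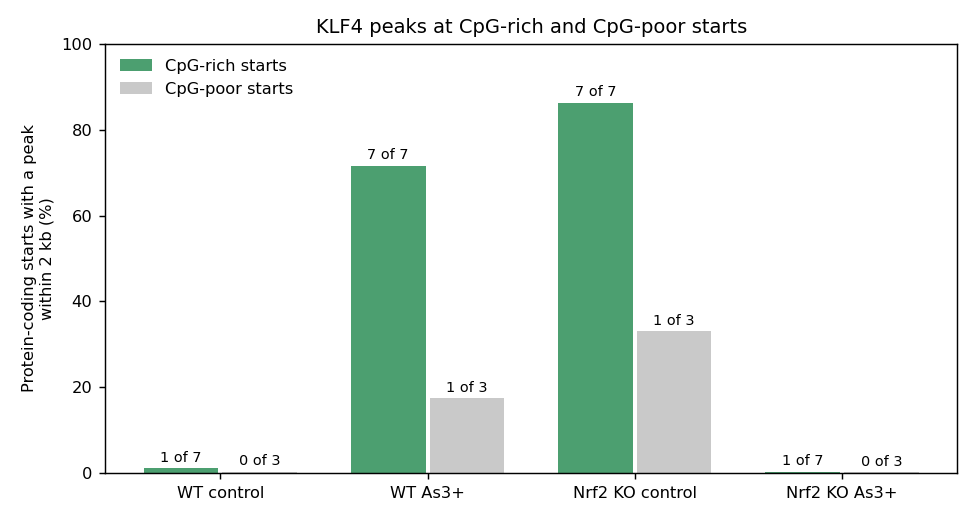
Share of protein-coding gene starts with a KLF4 peak within 2 kb (vertical axis, percent), for CpG-rich and CpG-poor starts in each library. The numbers over the bars are the members of the same class with a peak, and the CpG-rich bars are the higher ones in all 4 libraries.

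Words were counted in the 200 bases around each summit, either strand. The KLF word (CCACGCCC or CCACACCC) was under 1 of the 42 member summits, that of ERBB4 in Nrf2 KO control, so 0 of 3 in WT control, 0 of 14 in WT As3+, 1 of 22 in Nrf2 KO control and 0 of 3 in Nrf2 KO As3+. Over all peaks of those lists it was found in 26.5%, 10.3%, 9.27% and 14.6% of windows, and in 8.05% of RefSeq promoters of 300 bases. The wider KLF word (CCCCGCCC or CCCCACCC) was under 2 of 3, 5 of 14, 4 of 22 and 1 of 3 member summits in the same order of libraries, beside 24.8%, 23.1%, 16.4% and 19.2% of all windows and 30.1% of promoters. The AP-1 word TGACTCA was under 1, 2, 1 and 0 member summits, at EGFR in WT control, at EGFR and HBEGF in WT As3+ and 7310 bp upstream of ERBB3 in Nrf2 KO control, beside 18.2%, 4.33%, 2.54% and 11.5% of all windows and 4.95% of promoters. The antioxidant response element core TGACNNNGC was under 1 member summit, the WT As3+ peak at the start of MIEN1, where it overlaps a wider KLF word, beside 12.8%, 9.36%, 9.17% and 6.92% of all windows and 13.3% of promoters. A word in a window is a match of letters and not a measured binding site.

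The genes around the receptors were read from 6 lists with 46 genes in all. In WT control 1 of them had a peak, GAB2, an adaptor, with 13 fragments in its window, and in Nrf2 KO As3+ none had. In WT As3+ 42 of 46 had a peak and in Nrf2 KO control 45 of 46, beside the 66.5% and 81.0% of all genes. At promoters the counts were 0, 40, 41 and 0, beside 0.794%, 52.5%, 67.5% and 0.195% of all genes in WT control, WT As3+, Nrf2 KO control and Nrf2 KO As3+. All 4 genes of the shedding step (ADAM10, ADAM17, RHBDF1 and RHBDF2), all 6 adaptors and all 10 genes of the RAS-MAPK arm had a peak in both long lists. The PI3K and PLC arm had 7 of 8 in WT As3+, without PIK3CB, and 8 of 8 in Nrf2 KO control, and negative feedback genes had 12 of 13, without SPRY1, and 13 of 13. The further ligands had 3 of 5 in WT As3+ (NRG1, NRG2 and NRG4) and 4 of 5 in Nrf2 KO control, where EPGN had none. The counts of further ligands with a peak were near the shares of all genes in both long lists. Over all 46 genes the counts in these lists lay above those shares, in windows and at promoters. This difference was not tested.

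The strongest partner peaks by p lay in WT As3+ at PIK3R1, the regulatory subunit of PI3K, with 27 fragments 255 bp upstream of its start. RHBDF1, a carrier of the sheddase ADAM17, had 25 fragments 118 bp upstream, and DUSP4, a phosphatase that turns off MAPK, had 29 fragments 1758 bp past its start. In Nrf2 KO control they were SOCS3, an inhibitor of cytokine and growth factor signals, with 19 fragments, SHC1, an adaptor, with 18, and SOS1, the exchange factor for RAS, with 20, at 5990 bp upstream, 8720 bp past and 3370 bp upstream of the canonical starts. None of these reached the 41 fragments of EGFR in the same lists. Partner peaks were assigned by the gene window alone, and their distance to the starts of other genes was not looked up. Those away from the partner's start can therefore belong to a neighbouring gene.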

How the data were processed

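KLF4 ChIP-seq peak lists of 4 BEAS-2B libraries were analysed, and libraries for input, H3K27Ac and H3K4me1 were not used here. The authors aligned reads with BWA, and the submitters' processing notes name GRCh38/hg38 as the build and bcl2fastq 2.17. The paper's methods name hg38 beside an earlier build without saying which was used for these lists, and 229 peaks lie on contigs whose names belong to GRCh38. The peak caller and its control are not given in the sources used here. The sample titles name a single KLF4 input, from BEAS-2B cells, without stating a genotype or treatment. The deposited lists give, per library, a fold enrichment (a ratio to local background), −log10 p and −log10 q at the summit, and a score. All 107624 listed peaks lay inside GRCh38 chromosomes of the reference, and those on autosomes and sex chromosomes were used.

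Fragments n and background λ were solved from fold = (n + 1)/(λ + 1) and p as a Poisson upper tail, with a largest misfit in −log10 p of 0.000405. Read totals are not in the lists, so depth is known only through λ. Genes came from GENCODE 44. The members, partner lists and words were chosen with earlier results of these data known. The genes named are the 10 members, per library the 3 partner genes with the strongest peak by p, and the 3 promoters nearest to EGFR by Euclidean distance in log2 fragments. Further ligands, other partner genes named as exceptions or as full lists, the cluster gene EPGN, MIEN1 and PA2G4 were named after their values were seen. CRE and the CpG classes were chosen after seeing the data. The fragment solution, the counts in gene windows and the search for KLF, wider KLF and AP-1 words were tested on simulated data. The other steps were not, and no replicate or significance test was possible. Python 3.11.15, numpy 2.4.6, scipy 1.17.1 and pandas 2.3.3 were used. Alternatives were a −log10 q of at least 5, the 130 strongest peaks of each list, and other windows, starts and overlap rules.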

Additional observations from a re-analysis of the deposited data

Results flagged for a closer look

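Between the libraries labelled control and As3+, 6 quantities went in opposite directions in WT and Nrf2 KO cells. With 1 library per condition these differences were not tested. All 6 went in the same direction as the number of listed peaks, which rose in WT and fell in Nrf2 KO cells. Whether list length sets them was not tested. The treatment labels, on which each direction rests, could not be checked in peak lists. Genes of the family with a KLF4 peak went from 1 to 8 in WT cells and from 9 to 1 in Nrf2 KO cells, and peaks in their windows from 3 to 14 and from 22 to 3. Promoters with a peak went from 1 to 8 and from 8 to 1, and signaling partner genes with a peak from 1 to 42 and from 45 to 0. With the 130 strongest peaks of each list, genes with a peak went from 0 to 1 in WT and stayed at 1 in Nrf2 KO cells, as did promoters, peaks went from 0 to 1 in WT and from 1 to 3 in Nrf2 KO cells, and no partner gene had a peak in any library. At the EGFR main peak, fragments over the summit went from 22 to 41 in WT and from 41 to 25 in Nrf2 KO cells. Over the lowest background of each library the EGFR peak went from 11.6 to 54.1 in WT and from 83.5 to 15.3 in Nrf2 KO cells.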

How the results depend on the processing

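With only the 130 strongest peaks of each list, the number of genes with a peak was 0 in WT control, 1 in WT As3+ and 1 in Nrf2 KO control, and so were the numbers of peaks and of promoters with one, beside 1 gene, 3 peaks and 1 promoter in Nrf2 KO As3+, whose list is not shortened. The fall in peaks from Nrf2 KO control to Nrf2 KO As3+ (22 to 3) thus turned to 1 and 3. The same setting left 0 signaling partner genes in WT control, WT As3+ and Nrf2 KO control, and 1 WT As3+ peak, which overlapped a Nrf2 KO control peak (100%). This follows from the setting, which shortens 3 of the lists. At a −log10 q of at least 5, peaks in the windows numbered 8 in WT As3+, 7 in Nrf2 KO control and 1 in Nrf2 KO As3+, promoters with a peak 5 in WT As3+ and 5 in Nrf2 KO control, and partner genes with a peak 0 in WT control. The share of WT As3+ peaks with a Nrf2 KO control peak was 28.6% when summits had to lie within 100 bp and 35.7% when 50% of both peaks had to be in common. For these settings, shares over all genes or all peaks were not worked out, except for summits within 100 bp. The other 47 values stayed within 1.5 times the value given, or for the overlap within its interval. No paired analysis was possible because every condition has 1 library. The number of libraries and the unequal listing limits bound all of the above: a site at the lowest background needed 10 fragments in WT control and 4 in Nrf2 KO control, background at unlisted sites is unknown, and an unlisted site is not shown to be unbound.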
